A study of Mus musculus with 6 samples.

Results

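Respiratory complex I, the NADH dehydrogenase of the inner mitochondrial membrane, is built from nuclear genes named Nduf and from 7 genes of the mitochondrial genome. The genes described here are the rows of the deposited table whose symbol begins with Nduf, with names ending in -ps left out and a summed count of at least 60 over the 6 libraries. Of 51 such rows, 4 were left out by name and 0 by the count minimum, which left 47 genes of the 18491 in the table. They comprise 37 subunit genes, 8 assembly factor genes (Ndufaf1 to Ndufaf8) and 2 genes, Ndufb4c and Ndufs6b, that GENCODE annotates as processed pseudogenes and that are counted apart. All 47 passed the filter on low counts. RefSeq places Ndufb1 at the locus of a row left out, Ndufb1-ps, so that subunit stands outside the 37.

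The RNA came from mouse bone marrow cells sorted by fluorescence as haematopoietic stem and progenitor cells, which give rise to all blood lineages. The groups are 3 wild-type libraries and 3 Robo1 knockout libraries, all from 8 months after poly(I:C). Poly(I:C) is a double-stranded RNA that induces the Mx1-cre recombinase, and the design text gives 3 doses and Mx1-cre as the means of the knockout. Mx1-cre is active in interferon-responsive cells and so is not restricted to stem cells. The sample titles and the treatment field instead call the groups shCtrl and shROBO1, a scramble shRNA control and knockdowns of ROBO1, ROBO2 and ROBO3, and the genotype field reads ROBO1 knockdown. The groups here follow the descriptions, WT and KO. Strain, age, sex and whether each library came from its own animal are not given in the sources used here. The p-values therefore measure the spread between libraries, possibly a technical one. The targeted gene was not analysed here, and the labels were not checked against it.

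Complex I takes electrons from NADH to ubiquinone and pumps protons across the membrane, and it is the entry point of most electrons into the respiratory chain. Its matrix arm carries the flavin and the iron-sulphur clusters, and its membrane arm carries the proton channels, which are encoded by the mitochondrial genome. Assembly factors bind intermediates, insert or modify subunits and leave before the enzyme is complete. Haematopoietic stem cells are known for low reliance on respiration, which increases as cells differentiate.

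Libraries held 42235077 to 58106099 counts. TMM scaling, which assumes that most genes do not differ, multiplied library sizes by 1.44 to 1.52 in wild type and by 0.66 to 0.69 in knockout, so the rises and falls below are relative to it. Over the 15474 genes tested, the median log2 fold change (knockout over wild type) was -0.09 with TMM and -1.22 with total counts as the only scaling. Marker genes also moved with genotype. The 15 stem and progenitor markers summed to 309 to 325 CPM (counts scaled to a common library size) in wild type and 303 to 316 in knockout, with Kit at 12.3 to 15.7 and 16.6 to 17.2 CPM and Cd34 at 103 to 112 and 101 to 102 CPM, neither of them called. Of the 15, 2 were higher (Ly6a and Cd48) and 5 lower (among them Hlf, Meis1 and Spi1), so the level sum hides changes in both directions. Mpo, a granule enzyme of myeloid precursors that is in none of the marker lists, stood at 47373 to 51024 CPM in wild type and 144745 to 152780 CPM in knockout (log2 fold change 1.59 ± 0.05, edgeR adjusted p = 6.88e-08). Eosinophil markers summed to 5704 to 6873 and 44520 to 50227 CPM, with 7 of 7 tested higher. Neutrophil markers summed to 2342 to 2718 and 8357 to 8673 CPM (4 of 8 higher), erythroid markers to 1431 to 1922 and 4767 to 5734 CPM (4 of 8 higher, 1 lower), and B and plasma cell markers to 696 to 788 and 1015 to 1207 CPM (1 of 8 higher, 3 lower). T and NK markers summed to 13.7 to 14.7 and 8.02 to 9.30 CPM (1 of 5 lower), macrophage markers to 81.1 to 84.3 and 58.7 to 61.8 CPM (1 of 6 lower) and stromal and endothelial markers to 12.5 to 13.9 and 9.78 to 12.9 CPM (0 of 2 called), and no marker in the table was at 0. The part of these markers in the complex I values was not tested. In bulk RNA, fewer cells of a type and less RNA per cell cannot be told apart.

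The comparison asks how transcripts of complex I subunits and of the factors that assemble it differ between the genotypes. With TMM scaling, 23 of 37 subunit genes rose in knockout, 1 fell (Ndufa12) and 13 were not called, whereas with total counts 0 rose and 35 fell. Of the 8 assembly factors, 0 rose, 4 fell (Ndufaf6, Ndufaf3, Ndufaf8 and Ndufaf7) and 4 were not called with TMM, and 8 fell with total counts. Calls use edgeR's quasi-likelihood test with a threshold of 0.05 on the Benjamini-Hochberg adjusted p. Among all genes tested, 17.2% were called higher and 14.4% lower with TMM, and 4.23% and 70.7% with total counts. The median log2 fold change was 0.38 for the subunits (quartiles 0.18 and 0.54) and -0.37 for the assembly factors with TMM, and -0.76 and -1.50 with total counts. All 3 knockout libraries lay above all 3 wild-type libraries for 26 subunits and 1 assembly factor, against 22.2% of all genes. They lay below for 1 subunit and 5 assembly factors, against 24.4% of all genes.

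**Figure D1:**
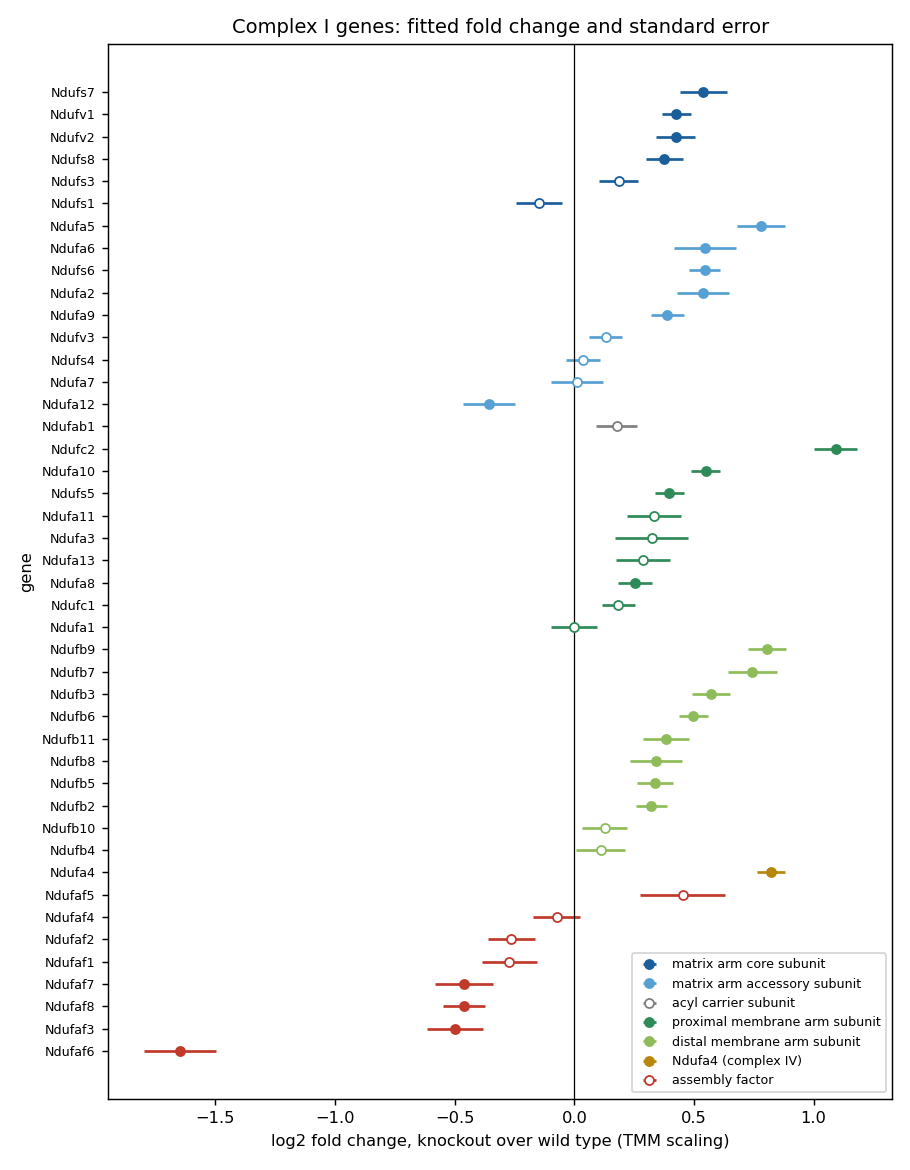
Fitted log2 fold change (x axis, knockout over wild type, TMM scaling) of 36 subunit and 8 assembly factor genes (y axis), with bars of 1 standard error; filled points passed the adjusted p threshold of 0.05. Most subunits lie right of 0 and 7 of 8 assembly factors left of it; with total counts all of them lie left of 0.

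The distance between the subunits and the assembly factors does not depend on a single scaling factor per library, because both are read from the same library. Offsets that act gene by gene, on exon length and GC content, can change it. With them the median log2 fold changes of the classes were 0.23 and -0.24, against 0.38 and -0.37 with TMM. The mean log2 CPM of the 37 subunits exceeded that of the 8 assembly factors by 2.96, 2.85 and 2.83 in the wild-type libraries and by 3.63, 3.65 and 3.73 in the knockout libraries. All 3 knockout distances were wider than all 3 wild-type distances, at 3.67 ± 0.05 against 2.88 ± 0.07 (mean ± SD, n = 3 each), a difference of 0.79. Without Ndufaf6, the assembly factor that changed most, the distances were 2.94, 2.85 and 2.82 in the wild-type libraries and 3.48, 3.47 and 3.497 in the knockout libraries, a difference of 0.61. The genes were put into these classes by name, with earlier results known, so the difference is a description. The subunits also stand at higher levels than the assembly factors. All tested genes within the middle 50% of the subunits' wild-type levels had a median log2 fold change of 0.59 with TMM. Those within the middle 50% of the assembly factors' levels had -0.01. How much of the wider distance goes with level was not tested. As a share of all counts, the subunits took 0.711 ± 0.0216% in knockout against 1.18 ± 0.0665% in wild type, and the assembly factors 0.0110 ± 0.000106% against 0.0323 ± 0.00065% (n = 3 per group, mean ± SD). In reads, the assembly factors together held 4599 to 18377 per library and the subunits 309650 to 649296.

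**Figure D2:**
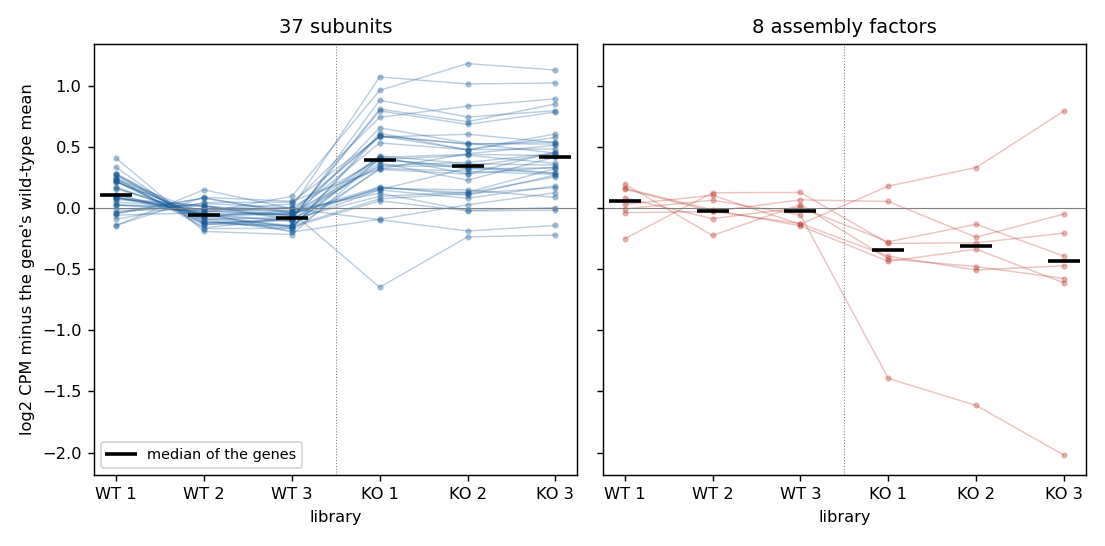
Log2 CPM with TMM scaling minus the gene's wild-type mean (y axis) in each of the 6 libraries (x axis), with 1 line per gene and black bars at the median of the genes. The subunit medians are higher in all 3 knockout libraries and the assembly factor medians lower. The direction of the subunits turns with total counts, while the gap between the classes does not change with a single factor per library.

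The 7 core subunits of the matrix arm carry the electron path from NADH to ubiquinone. With TMM, 5 of the 7 rose and 0 fell (17.2% and 14.4% of all genes), and the median log2 fold change was 0.42. Ndufv1, which binds the flavin that accepts electrons from NADH, stood at 228, 211 and 206 CPM in wild type and 286, 291 and 289 CPM in knockout. Every knockout library was above every wild-type library, at 0.43 ± 0.06 on the log2 scale (SE, edgeR adjusted p = 0.00066). Ndufs1, the largest core subunit and a holder of iron-sulphur clusters, stood at 23.0, 28.1 and 25.3 CPM in wild type and 23.7, 22.3 and 23.0 CPM in knockout. Its groups overlapped, at -0.15 ± 0.10 (edgeR adjusted p = 0.295). Ndufs7, Ndufv2 and Ndufs8, which hold further iron-sulphur clusters, rose by 0.54, 0.42 and 0.38, and Ndufs3 was not called at 0.18. With total counts 0 of the 7 rose and 6 fell, against 4.23% and 70.7% of all genes.

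The 9 accessory subunits of the matrix arm surround this core without carrying redox centres. With TMM, 5 of the 9 rose and 1 fell (17.2% and 14.4% of all genes), and the median was 0.39. Ndufs6, a zinc-binding subunit needed late in assembly, stood at 176, 158 and 163 CPM in wild type and 249.04, 239 and 238 CPM in knockout. Ndufa5 stood at 129, 101 and 105 CPM in wild type and 194, 181 and 199.8 CPM in knockout. Every knockout library was above every wild-type library for both genes, with log2 fold changes of 0.54 ± 0.06 and 0.78 ± 0.10 (edgeR adjusted p = 0.000191 and 0.000296). With offsets that remove each library's trend on exon length and GC content, the call of Ndufs6 was lost (0.17, adjusted p = 0.0554). Ndufa7 stood at 225, 185 and 166 CPM in wild type and 178, 194 and 207 CPM in knockout, so that its groups overlapped (0.01 ± 0.11, edgeR adjusted p = 0.955). Ndufa6, Ndufa2 and Ndufa9 also rose, by 0.55, 0.54 and 0.39, while Ndufv3 and Ndufs4 were not called at 0.13 and 0.04. Ndufs4 is the subunit whose loss is widely used as a mouse model of Leigh syndrome.

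Ndufa12, which takes the place of the assembly factor Ndufaf2 late in assembly, was the subunit called lower. It stood at 576, 631 and 582 CPM in the wild-type libraries and at 380.3, 506 and 511 CPM in the knockout libraries. The groups did not overlap and knockout replicate 1 was lowest (log2 fold change -0.36 ± 0.11, 1.28-fold lower, edgeR adjusted p = 0.0331). The call was lost without wild type replicate 1, 2 or 3 (adjusted p = 0.0703, 0.137 and 0.0875). Ndufa12 has a processed copy, Ndufa12-ps, on the plus strand of chromosome 5 (130188395 to 130188796, GRCm38), and reads can be divided between them. The copy is 402 bases long and matches the Ndufa12 transcript at 99.5% of them, with 2 mismatches and a longest identical run of 278 bases. The stretch below shows how alike they are, from the coding sequence of Ndufa12 (chromosome 10) and from the first 120 bases of the copy (chr5:130188395-130188514), with the base that differs in capitals.
Ndufa12: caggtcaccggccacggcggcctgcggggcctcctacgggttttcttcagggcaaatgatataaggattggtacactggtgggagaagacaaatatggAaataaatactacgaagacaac
Ndufa12-ps: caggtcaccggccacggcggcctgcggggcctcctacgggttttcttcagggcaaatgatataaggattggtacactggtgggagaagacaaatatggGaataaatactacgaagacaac

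Ndufa12-ps held 63.1, 31.8 and 42.7 CPM in wild type and 150.1, 44.2 and 135.8 CPM in knockout. It took 9.87, 4.80 and 6.84% of the reads of the pair in wild type and 28.3, 8.04 and 21.0% in knockout. Knockout replicates 1 and 3 were high and knockout replicate 2 lay within the wild-type range. Summed over the pair, the level was 639, 663 and 624 CPM in wild type and 530.3, 549.8 and 647 CPM in knockout, so that the groups overlapped. With the copies' reads added to their parent genes, Ndufa12 was not called (log2 fold change -0.16, edgeR adjusted p = 0.173), and 0 subunits were lower. How many of the copy's reads come from Ndufa12 was not tested. With total counts the log2 fold change of Ndufa12 was -1.49.

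**Figure D3:**
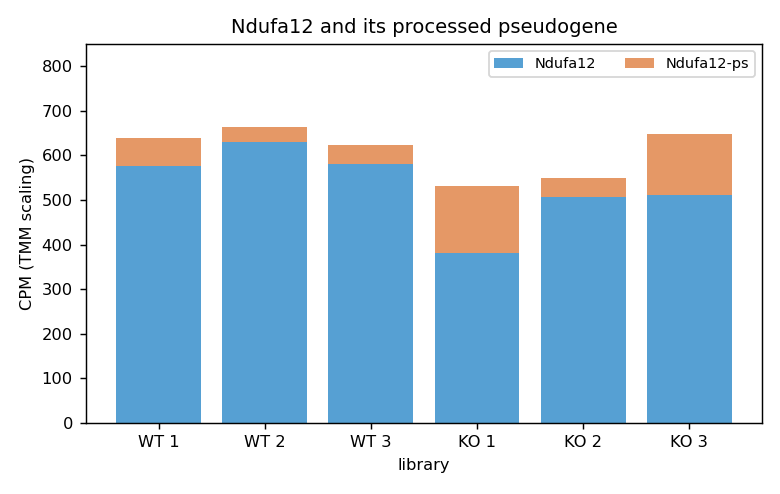
CPM with TMM scaling (y axis, from 0) of Ndufa12 and of its processed copy Ndufa12-ps, stacked, in each of the 6 libraries (x axis). The copy is larger in knockout replicates 1 and 3, and the stacks of the groups overlap at the height of 624 to 647 CPM.

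The proximal membrane arm, which joins the matrix arm to the proton channels, has 9 accessory subunits among these genes. With TMM, 4 of the 9 rose and 0 fell (17.2% and 14.4% of all genes), and the median was 0.32. Ndufc2, which sits beside ND2, had the largest rise of the 47 genes with TMM. It stood at 24.6, 25.0 and 27.4 CPM in wild type and 49.97, 58.2 and 56.1 CPM in knockout. The knockout libraries were 2.13-fold higher, with no overlap (log2 fold change 1.09 ± 0.09, edgeR adjusted p = 1.42e-05). With total counts it was level with wild type within its error, at -0.04 (edgeR adjusted p = 0.714). With length and GC offsets it was higher by 0.52 (edgeR adjusted p = 0.00243). Several genes stood above it there, among them Ndufa4 at 0.89, Ndufb7 at 0.85, Ndufa10 at 0.64 and Ndufa5 at 0.54. Ndufa10, a nucleoside-kinase-like subunit, stood at 173, 173 and 166 CPM in wild type and 257, 238 and 255 CPM in knockout (0.55 ± 0.06, edgeR adjusted p = 0.000126). Ndufa1, an X-linked subunit, stood at 134, 112 and 104 CPM in wild type and 121, 114 and 115 CPM in knockout. Its knockout values lay inside the wild-type range (-0.0022 ± 0.10, edgeR adjusted p = 0.99). Ndufs5 and Ndufa8, which have twin cysteine motifs, rose by 0.40 and 0.25, and stood at -0.026 and -0.25 with the offsets. Ndufa11, Ndufa3, Ndufa13 and Ndufc1 were not called, at 0.33, 0.32, 0.29 and 0.18, and Ndufa11 lay just outside the threshold (edgeR adjusted p = 0.0504).

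The distal membrane arm had 10 genes, all Ndufb. With TMM, 8 rose and 0 fell (17.2% and 14.4% of all genes), with a median of 0.36. At the subunits' middle wild-type levels, 70.9% of 409 genes rose, with a median of 0.59. Ndufb9, a member of the LYR-motif family, stood at 246, 213 and 206 CPM in wild type and 407, 369.8 and 383 CPM in knockout. Ndufb6 stood at 164, 159.8 and 152 CPM in wild type and 229, 221 and 222 CPM in knockout. The groups were apart for both, at 0.80 ± 0.08 and 0.50 ± 0.06 (edgeR adjusted p = 5.81e-05 and 0.000215). Ndufb6 turned to -0.21 with length and GC offsets. Ndufb8, whose protein is a common readout of complex I abundance, stood at 893, 689 and 671 CPM in wild type and 926, 902 and 1024 CPM in knockout. The lowest knockout value lay just above the highest wild-type value, wild type replicate 1 (0.34 ± 0.11, edgeR adjusted p = 0.04), and the call was lost without any of 5 of the libraries, at adjusted p of 0.0678 to 0.147. Ndufb4 stood at 88.7, 70.9 and 68.0 CPM in wild type and 79.4, 81.8 and 84.6 CPM in knockout, with the knockout values inside the wild-type range (0.11 ± 0.10, edgeR adjusted p = 0.465). Of the others, Ndufb7 rose by 0.74, Ndufb3 by 0.57, Ndufb11 by 0.38, Ndufb5 by 0.34 and Ndufb2 by 0.32, and Ndufb10 was not called at 0.13. With the offsets Ndufb3 and Ndufb11 were not called (0.06 and -0.02, edgeR adjusted p = 0.642 and 0.874). With total counts all 10 fell, against 70.7% of all genes.

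Ndufab1, the mitochondrial acyl carrier protein, is a complex I subunit that also serves fatty acid and iron-sulphur cluster synthesis. It stood at 125, 104 and 105 CPM in wild type and 125, 121 and 133 CPM in knockout, and the groups overlapped through wild type replicate 1 (0.18 ± 0.09, edgeR adjusted p = 0.156). Ndufa4 is now regarded as a subunit of complex IV, although its name was given for complex I. It stood at 679.8, 679.9 and 704 CPM in wild type and 1149.8, 1225 and 1276 CPM in knockout, a wide and even separation (0.82 ± 0.06, 1.77-fold, edgeR adjusted p = 5.82e-06). Without Ndufa4, 22 of 36 subunits rose and the median was 0.36. With total counts Ndufa4 fell by 0.31. The processed pseudogene Ndufb4c, identical to Ndufb4 over its 390 bases, stood at 15.5, 12.5 and 11.6 CPM in wild type and 14.9, 15.5 and 17.9 CPM in knockout. Ndufs6b, which matches Ndufs6 at 96.55% of 348 bases, stood at 4.28, 3.32 and 2.63 CPM in wild type and 4.94, 3.59 and 4.14 CPM in knockout. Both sets of groups overlapped and neither was called (0.29 ± 0.13 and 0.31 ± 0.22, edgeR adjusted p = 0.136 and 0.336), and their reads may belong in part to their parent genes.

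Among the assembly factors Ndufaf6 changed most. Its protein acts early, in the assembly of the module that holds ND1. It stood at 21.1, 22.2 and 20.4 CPM in the wild-type libraries and at 8.07, 6.92 and 5.22 CPM in the knockout libraries. All 3 knockout libraries were well below all 3 wild-type libraries, 3.14-fold on the fitted scale (log2 fold change -1.65 ± 0.15, edgeR adjusted p = 3.1e-05). Leaving out each library in turn gave -1.80 to -1.50, and the gene was lower with each scaling tried, from -1.62 with RLE size factors to -2.79 with total counts.

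The factors that act on the ubiquinone module gave smaller values. Ndufaf3, which works with Ndufaf4 in building that module, stood at 33.9, 25.3 and 30.1 CPM in wild type and 22.1, 21.2 and 19.8 CPM in knockout. Its groups did not overlap (-0.50 ± 0.12, edgeR adjusted p = 0.00984). Ndufaf4 stood at 22.4, 22.5 and 24.1 CPM in wild type and 23.8, 19.5 and 22.2 CPM in knockout, with overlap (-0.07 ± 0.10, edgeR adjusted p = 0.622). The partners thus had different calls, and the difference between them was not tested. Ndufaf7, a methyltransferase, stood at 17.7, 15.6 and 14.3 CPM in wild type and 11.7, 12.5 and 10.3 CPM in knockout. It fell (-0.46 ± 0.12, edgeR adjusted p = 0.0167), and the call was lost without wild type replicate 1 or 2 (adjusted p = 0.0592 and 0.0533).

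Ndufaf5 hydroxylates Ndufs7, and Ndufaf8 is the partner that stabilises it. Ndufaf8 stood at 84.2, 74.1 and 69.2 CPM in wild type and 57.5, 53.2 and 54.5 CPM in knockout, with a clear gap between the groups (-0.46 ± 0.09, edgeR adjusted p = 0.00335). Ndufaf5 stood at 5.98, 6.30 and 5.35 CPM in wild type and 6.64, 7.38 and 10.2 CPM in knockout. Its knockout libraries were all higher and spread widely, replicate 3 being highest, and it was not called (0.45 ± 0.18, edgeR adjusted p = 0.0835). Without knockout replicate 1 it passed (0.58, adjusted p = 0.0455). Ndufaf1, which acts in the membrane arm intermediate assembly complex, stood at 19.7, 25.5 and 25.6 CPM in wild type and 19.1, 19.2 and 20.3 CPM in knockout. Wild type replicate 1 lay among the knockout values (-0.27 ± 0.12, edgeR adjusted p = 0.11), and without that library the gene was called (-0.37, adjusted p = 0.0162). Ndufaf2, a paralogue of Ndufa12 that holds its place until late assembly, stood at 24.4, 21.7 and 23.2 CPM in wild type and 19.1, 21.1 and 17.6 CPM in knockout. The groups did not overlap, by a narrow margin (-0.26 ± 0.10, edgeR adjusted p = 0.0701).

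**Figure D4:**
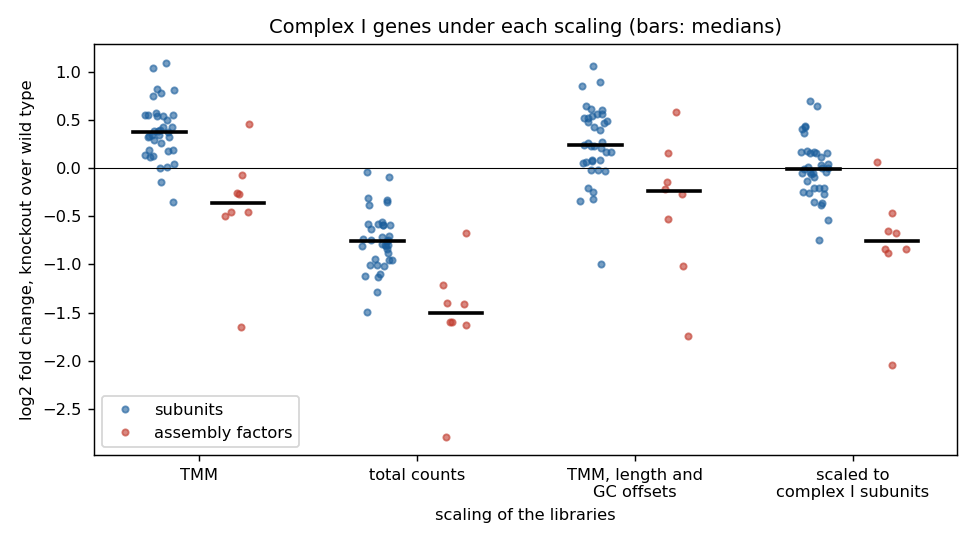
Log2 fold change, knockout over wild type (y axis), of the 37 subunits and 8 assembly factors (1 point per gene, bars at the medians) under 4 scalings of the libraries (x axis). The subunit median is 0.38 with TMM and -0.76 with total counts, and the assembly factor median lies below it under all 4. TMM, total counts and scaling to the subunits use 1 factor per library, so by design the gap barely changes among them. With the length and GC offsets, which act gene by gene, the medians are closer together, at 0.23 and -0.24.

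When libraries were scaled to the subunits themselves, a setting chosen after the values were seen, 7 of the 8 assembly factors fell and 0 rose, with a median of -0.76. All genes then had a median of -0.48, with 36.6% lower and 9.9% higher. Ndufaf5 was the factor not called (0.06, adjusted p = 0.806). On the same scale 6 subunits rose against the others, among them Ndufc2, Ndufa4, Ndufb9, Ndufa5 and Ndufb7 at 0.70, 0.43, 0.42, 0.40 and 0.36, and 9 fell. This scale is centred on the subunits, so values on both sides of 0 follow from it. Whether the subunits differed among themselves was not tested. With the length and GC offsets, 20 subunits rose and 5 fell (17.9% and 10.5% of all genes), with a median of 0.23. Those lower were Ndufa1, Ndufa12, Ndufa2, Ndufa8 and Ndufb6, of which Ndufa2, Ndufa8 and Ndufb6 were called higher without the offsets. Of the 23 subunits that rose without offsets, 16 also rose with them, 3 were those that turned and 4 lost their call (Ndufs5, Ndufb11, Ndufb3 and Ndufs6). The other 4 of the 20 were Ndufv3, Ndufa13, Ndufc1 and Ndufab1. For the assembly factors the offsets gave 1 higher (Ndufaf5, 0.58) and 3 lower (Ndufaf6, Ndufaf8 and Ndufaf3), with a median of -0.24, and Ndufaf7 lost its call (-0.27, adjusted p = 0.184).

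Promoter letters are shown for members that rose, fell and were not called. RefSeq windows (GRCm38.p6) of 300 bases, from 250 before to 50 after the start, matched 33 of 37 subunits and 7 of 8 assembly factors. They were searched on both strands for GCGCATGCGC (the palindrome of NRF1, a regulator of nuclear respiratory genes), CCGGAAG (ETS family, which includes GABP) and AAGATGG (YY1), none of which is contained in another. Counts are of genes, and a gene with more than 1 window was counted if any of them held the letters. The NRF1 letters were found for 1 of 33 subunit genes (Ndufa11) and 2 of 7 assembly factor genes (Ndufaf4 and Ndufaf5), against 1.07% of 27025 genes with a window. The ETS letters were found for 4 subunit genes (Ndufb6, Ndufb7, Ndufs3 and Ndufs8) and 2 assembly factor genes (Ndufaf1 and Ndufaf8), against 9.93%. The YY1 letters were found for 7 subunit genes (Ndufa3, Ndufa9, Ndufb8, Ndufc1, Ndufs4, Ndufs6 and Ndufs7) and 1 assembly factor gene (Ndufaf8, after the start), against 7.28%. These matches are descriptions of letters. The 150 bases before the start are given for the most risen subunit with a window, Ndufc2 (chr7:97399853-97400002, plus strand), for Ndufa11, which was not called (chr17:56717612-56717761, plus strand), for Ndufaf4, which was not called (chr4:24897933-24898082, plus strand), and for Ndufaf8, which fell (chr11:120098784-120098933, plus strand), with motif letters in capitals. The Ndufc2 stretch holds none of the 3 motifs, and a gene of each class holds the NRF1 letters.
Ndufc2: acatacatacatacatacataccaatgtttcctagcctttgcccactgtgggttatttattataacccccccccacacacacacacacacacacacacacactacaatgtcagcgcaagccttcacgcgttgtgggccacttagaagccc
Ndufa11: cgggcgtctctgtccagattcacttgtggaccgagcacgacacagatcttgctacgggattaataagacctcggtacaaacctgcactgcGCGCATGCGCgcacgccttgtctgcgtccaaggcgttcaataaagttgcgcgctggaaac
Ndufaf4: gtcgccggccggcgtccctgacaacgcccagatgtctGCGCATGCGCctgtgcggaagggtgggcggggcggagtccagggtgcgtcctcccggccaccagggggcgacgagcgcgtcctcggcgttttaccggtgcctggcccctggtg
Ndufaf8: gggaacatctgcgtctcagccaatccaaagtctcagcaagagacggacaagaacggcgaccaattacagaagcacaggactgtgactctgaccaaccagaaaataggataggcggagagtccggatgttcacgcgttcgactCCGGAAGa

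Per length, in the authors' FPKM (counts scaled by gene length and library total), the subunits spanned 13.0 to 1412 in wild type with a median of 259.8, and the assembly factors 6.20 to 131 with a median of 22.9. Ndufa4 (1412 ± 41.3 FPKM), Ndufb8 (1328 ± 170) and Ndufa12 (1283 ± 108) were highest in wild type and did not differ beyond their spread (mean ± SD, n = 3). Ndufa2 followed at 808 ± 107 FPKM and Ndufb7 at 715 ± 79.5 FPKM. In each wild-type library Ndufa12 lay above Ndufa2 and Ndufb7, and in each knockout library it lay below both, at 343, 502 and 508 FPKM against 544, 530.5 and 538 FPKM for Ndufa2. At the low end stood Ndufaf5 (6.20 ± 0.598 FPKM), Ndufaf4 (10.8 ± 0.872), Ndufs1 (13.0 ± 1.81) and Ndufaf7 (13.5 ± 0.926), the last 2 within their spread. Ndufaf8 was the highest assembly factor at 131 ± 8.20 FPKM, rank 30 of the 45. Ndufaf6 moved from 25.7, 29.5 and 27.8 FPKM in wild type, above Ndufaf5 in every library, to 4.83, 4.09 and 3.47 FPKM in knockout, where it overlapped Ndufaf5 at 3.12, 3.56 and 4.90 FPKM. FPKM values are per total count, so they were lower in knockout for all 45 genes on average.

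Genes of like level were read beside these classes. All 409 tested genes whose wild-type FPKM lay in the middle 50% of the subunits (153 to 428 FPKM) had a median log2 fold change of 0.59 with TMM, and 70.9% of them rose and 6.11% fell. The subunits' own median, 0.38, was below that. Over the full range of the subunits (3499 genes) the median was 0.16, with 43.3% higher and 19.3% lower. For the assembly factors the picture was different, since 1429 genes in the middle 50% of their levels (12.8 to 31.3 FPKM) had a median of -0.01, with 27.4% higher and 26.6% lower, against -0.37 for the factors. Across the 37 subunits, which share libraries, the log2 fold change had a Pearson's r of -0.02 with log2 FPKM and -0.22 with log10 exon length, and across all genes the values were 0.22 and -0.27.

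**Figure D5:**
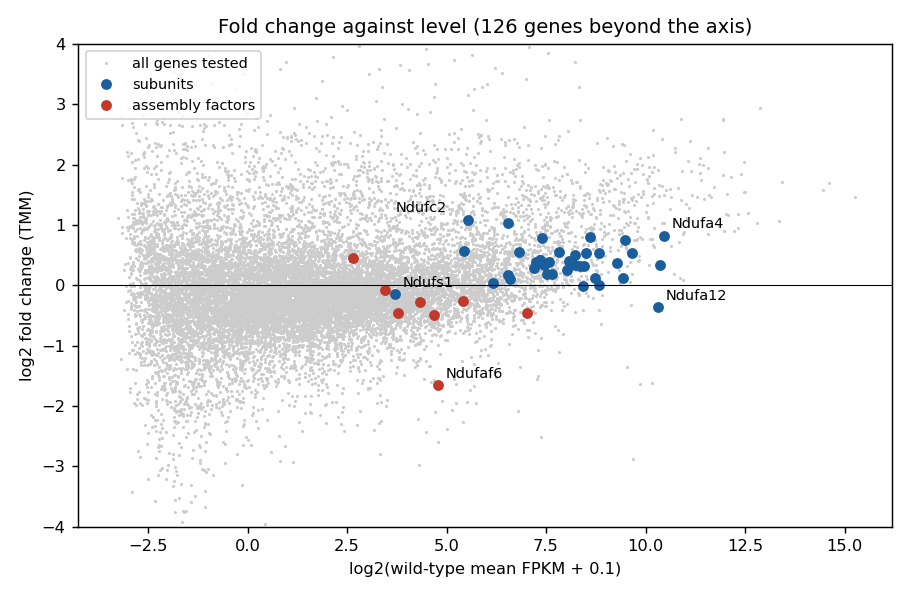
Log2 fold change with TMM scaling (y axis) against log2(wild-type mean FPKM + 0.1) (x axis) for all genes tested (grey; 126 lie beyond the axis), the 37 subunits and the 8 assembly factors. Grey points drift upward with level, the subunits lie within that band and Ndufaf6 lies below its neighbours; with total counts the subunits and the median gene lie below 0.

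Assembly factors not named Nduf had values below 0 for 8 of the 10 in the table, against 56.1% of all genes tested. Of these 10, 0 rose and 3 fell with TMM (17.2% and 14.4% of all genes) and 7 were not called, with a median of -0.31. With total counts all of these 10 fell, against 70.7% of all genes. Tmem126b, part of the same membrane arm assembly complex as Ndufaf1, stood at 12.03, 14.8 and 16.5 CPM in wild type and 6.32, 6.64 and 5.68 CPM in knockout, with all knockout libraries lower (-1.22 ± 0.14, edgeR adjusted p = 0.000185). Acad9, which also belongs to that complex, stood at 43.8, 46.4 and 45.7 CPM in wild type and 37.4, 35.6 and 32.5 CPM in knockout (-0.37 ± 0.08, edgeR adjusted p = 0.00785), and its call was lost with length and GC offsets (-0.18, adjusted p = 0.149). Ecsit, the third to fall and named after its value was seen, is a further member of the complex (-0.48 ± 0.12, edgeR adjusted p = 0.0128). Timmdc1, a membrane protein linked to that complex, was not called (-0.42 ± 0.22, edgeR adjusted p = 0.192). Tmem186, of the same list and also named after its value was seen, was not called (-0.24 ± 0.14, edgeR adjusted p = 0.225). Its groups overlapped. That complex as a whole was not tested.

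The subunits encoded by the mitochondrial genome form the proton channels that the Nduf subunits surround. Of the 7, 5 rose with TMM (mt-Nd1, mt-Nd3, mt-Nd4, mt-Nd4l and mt-Nd5), 0 fell and the median was 1.24, while with total counts 2 rose and 3 fell. The shares of all genes higher and lower were 17.2% and 14.4% with TMM and 4.23% and 70.7% with total counts. With length and GC offsets 4 rose and 1 fell (mt-Nd6, -0.71, edgeR adjusted p = 0.0265), with a median of 0.80. Of all genes, 17.9% rose and 10.5% fell with the offsets. On that setting mt-Nd3 went from 1.24 to 0.10 and lost its call (edgeR adjusted p = 0.621), and mt-Nd4l went from 1.74 to 0.80. mt-Nd4l stood at 107, 142 and 151 CPM in wild type and 415, 455 and 467 CPM in knockout. mt-Nd4 stood at 349, 428 and 432 CPM in wild type and 918, 994 and 1054 CPM in knockout. Both rose with no overlap (1.74 ± 0.12 and 1.29 ± 0.09, edgeR adjusted p = 4.93e-06 and 6.05e-06), and wild type replicate 1 was lowest for both. mt-Nd2 and mt-Nd6 were not called (0.38 and 0.27, edgeR adjusted p = 0.0705 and 0.39). As a share of counts the 7 genes took 0.695 ± 0.0486% in knockout against 0.543 ± 0.104% in wild type (n = 3 per group, mean ± SD). Against the nuclear subunits, in mean log2 CPM, they stood at -0.40, 0.28 and 0.32 in the wild-type libraries and 0.72, 0.74 and 0.81 in the knockout libraries. The balance of mitochondrial to nuclear transcripts was thus higher in all 3 knockout libraries, whatever the single factor used per library.

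The authors' deposited table classes 2 of the 47 genes as up (Ndufc2 among them), 1 as down (Ndufaf6) and 44 as stable. In the authors' deposited table the log2 fold changes of Ndufc2 and Ndufaf6 are 1.10 and -1.64. These classes do not rest on adjusted p alone, as the calls here do. Ndufa4, for example, is classed as stable at 0.83 with a DESeq2 adjusted p of 1.32e-32. A gene classed as stable there can thus be called higher or lower here.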

How the data were processed

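The authors deposited 1 table with raw counts per gene and library, unlabelled length-scaled values and the columns of their DESeq2 comparison. Per the submitters' processing notes, mm10, HISAT2 2.2.1 and featureCounts 2.0.1 were used, with DESeq2 1.32.0 and fastp 0.22.0; annotation and strand setting are not given in the sources used here. The deposited length-scaled values were read as FPKM, because 98.4 to 98.8% of 770 single-transcript genes per library lay within 1% of a constant multiple of FPKM recomputed from the counts. The authors' deposited log2 fold changes, p-values, mean signal and test score were used only to describe their table. There were 0 rows without a gene name.

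Counts were tested with edgeR 4.0.16 in R 4.3.3: filterByExpr (15474 genes), TMM scaling, the two-sided quasi-likelihood test over all genes and Benjamini-Hochberg adjustment. CPM uses TMM-scaled library sizes, and a standard error is the log2 fold change over the square root of F. DESeq2 1.42.0 and limma 3.58.1, on log2(FPKM + 0.1), were alternatives, as were other scalings, length and GC offsets (mgcv 1.9.3), no filter, a replicate block and each library left out. The procedure was tested on simulated counts in which a small share of genes changed, with about as many rises as falls. That simulation holds no shift in library composition like that of the data, so it does not bear on the scaling. Of 18491 gene IDs, 18457 matched GENCODE vM21; alignments to copies used Biopython 1.88. Values in every library are given for the 2 genes of lowest and the 1 of highest p in each role class, every gene called lower, all assembly factors and the 3 highest and 3 lowest in wild-type FPKM; in other lists for the 2 of lowest p and any called against the median. The members and lists were chosen with earlier results of these data known. A gene that the rule picks is not reported here. Replicate numbers did not pair the libraries.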

Additional observations from a re-analysis of the deposited data

How the results depend on the processing

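The limits are the scaling, the number of libraries (3 per group) and depth for the low genes: Ndufaf5 had a mean of 454 reads in wild type and Ndufs6b 258, so small changes in them were not detectable. Why values move with a setting was not tested. With RLE size factors, DESeq2 or no filter on low counts, the counts of calls and medians of subunits and assembly factors stayed within 1.5 times or 1 SD of those given, and 24, 24 and 23 of 25 genes described by library kept their direction and call.

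With total counts, 655 genes were higher and 10937 lower; of the subunits 0 were higher and 35 lower (median -0.76), of the assembly factors 8 lower (median -1.50), of the other assembly factors 10 lower, and of the mitochondrially encoded subunits 2 higher and 3 lower. With limma on log2(FPKM + 0.1) the values were 724 and 11282 genes, 0 and 35 subunits (median -0.74), 8 assembly factors lower (median -1.48), 10 other assembly factors lower, and 2 mitochondrially encoded subunits higher and 2 lower. Log2 fold changes turned under total counts and limma on FPKM, in that order, for Ndufa10 (-0.59 and -0.59), Ndufa4 (-0.31 and -0.31), Ndufa5 (-0.35 and -0.40), Ndufa7 (-1.12 and -1.11), Ndufab1 (-0.95 and -0.94), Ndufaf5 (-0.68 and -0.69), Ndufb4 (-1.02 and -1.01), Ndufb4c (-0.84 and -0.84), Ndufb6 (-0.64 and -0.64), Ndufb8 (-0.79 and -0.76), Ndufb9 (-0.33 and -0.33), Ndufc2 (-0.042 and -0.042), Ndufs6 (-0.59 and -0.58), Ndufs6b (-0.82 and -0.80) and Ndufv1 (-0.71 and -0.71).

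With libraries scaled to the complex I subunits, added after the data were seen, 1532 genes were higher and 5662 lower, with 6 subunits higher and 9 lower (median -0.0074), 7 assembly factors lower (median -0.76) and 8 other assembly factors lower. Turned values were Ndufa7 (-0.37), Ndufab1 (-0.21), Ndufb4 (-0.27), Ndufb4c (-0.092), Ndufb8 (-0.038) and Ndufs6b (-0.064). With pseudogene reads added to the parent gene, also added later, 0 subunits were lower.

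With length and GC offsets 5 subunits were lower (median 0.23), 1 assembly factor was higher (median -0.24), 1 other assembly factor was higher and 1 mitochondrially encoded subunit was lower. Turned values were Ndufaf4 (0.16), Ndufb4c (-0.75), Ndufb6 (-0.21), Ndufs1 (0.077) and Ndufs6b (-0.77). Same-numbered libraries had correlations of 0.05, -0.02 and 0.05 in their deviations, so the numbers do not pair the samples; with the replicate block 23 subunits were higher and 1 lower, 4 assembly factors were lower, 2467 genes were higher and 1906 lower, and Ndufa1 turned to 0.0055. With the replicate block and the offsets together, 1386 genes were lower, 4 subunits were lower (median 0.24), 1 mitochondrially encoded subunit was lower, and the assembly factor median was -0.24, with Ndufaf4 at 0.15, Ndufb4c at -0.76, Ndufb6 at -0.21, Ndufs1 at 0.079 and Ndufs6b at -0.77.

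Leaving out each library in turn gave 1356 to 2142 genes lower (1356 without wild type replicate 2 and 1419 without wild type replicate 3), 19 to 30 subunits higher, 0 to 1 subunits lower (0 without any wild-type library), 0 to 1 assembly factors higher (1 without knockout replicate 1) and 3 to 4 lower, and a subunit median of 0.33 to 0.48. Ndufa1 ranged from -0.068 to 0.13, Ndufa7 from -0.071 to 0.15 and Ndufaf4 from -0.14 to 0.0017. Ndufa1 turned to 0.022 with RLE size factors and 0.023 with DESeq2, and Ndufa7 to -0.0075 without the filter.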

Other observations

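Genes of the other respiratory complexes gave larger values than complex I on the same scale. Of 47 genes of complexes II to V and cytochrome c chosen by name, 42 rose with TMM, 0 fell and 5 were not called, with a median log2 fold change of 0.82; with total counts 8 rose and 32 fell. With length and GC offsets 36 rose and 3 fell, with a median of 0.76. Among all genes, 17.2% were called higher and 14.4% lower with TMM, 4.23% and 70.7% with total counts, and 17.9% and 10.5% with the offsets. Atp5g3, a subunit of the ATP synthase rotor, stood at 145, 141 and 146 CPM in wild type and 561, 583 and 545 CPM in knockout, and Atp5c1, the central stalk of the same enzyme, at 314, 308 and 306 CPM and 937, 941 and 956 CPM. Both were higher in every knockout library (log2 fold changes 1.97 ± 0.06 and 1.61 ± 0.05, edgeR adjusted p = 4.74e-08 and 6.39e-08). The difference between complex I and the other complexes was not tested, nor was how much of it goes with level. At the middle wild-type levels of the complex I subunits, 70.9% of 409 genes rose with TMM, with a median of 0.59.

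Genes that build iron-sulphur clusters, which the matrix arm of complex I carries, had values below 0 in 9 of 12, against 56.1% of all genes tested. Of the 12, 2 rose, 7 fell and 3 were not called with TMM, with a median of -0.40 (17.2% of all genes rose and 14.4% fell). With total counts 10 fell, against 70.7% of all genes. With length and GC offsets 3 rose and 6 fell (17.9% and 10.5% of all genes), with a median of -0.31. On that setting 7 of the 12 lay below 0, against 50.2% of all genes. Iscu, the scaffold on which clusters form, stood at 35.6, 37.9 and 34.9 CPM in wild type and 11.9, 9.81 and 6.51 CPM in knockout (-1.93 ± 0.18, edgeR adjusted p = 4.08e-05). Bola3 stood at 41.1, 45.1 and 45.0 CPM in wild type and 77.7, 84.8 and 85.9 CPM in knockout, and Iba57 at 2.83, 2.37 and 2.18 CPM and 3.90, 4.32 and 4.32 CPM. Both act in later transfer steps, and neither had overlapping groups. They were the 2 that rose with TMM, at 0.92 ± 0.08 and 0.77 ± 0.18 (edgeR adjusted p = 1.71e-05 and 0.0112), and stood at -0.21 and -0.36 with total counts. Of 10 genes for regulators of nuclear and mitochondrial respiratory transcription, 1 rose (Polrmt, the mitochondrial RNA polymerase, 0.50 ± 0.17, edgeR adjusted p = 0.0482), 1 fell (Pprc1, a PGC-1-related coactivator, -0.61 ± 0.15, edgeR adjusted p = 0.0137) and 8 were not called, with a median of -0.02 with TMM. These counts were no higher than the shares of all genes, 17.2% higher and 14.4% lower. With length and GC offsets 2 of the 10 rose, and without the filter on low counts 0 did. Polrmt stood at 7.37, 5.70 and 6.74 CPM in wild type and 11.3, 8.25 and 8.36 CPM in knockout, with knockout replicate 1 highest, and Pprc1 at 7.12, 8.63 and 7.25 CPM and 4.81, 4.52 and 5.75 CPM. The groups did not overlap for either. With total counts all 10 regulators fell, against 70.7% of all genes.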
